A study of Mus musculus with 2 samples.

Results

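This is an account of 8 transcription factor genes that pattern the early forebrain: *Fezf2*, *Emx2*, *Nr2e1*, *Dmrta2*, *Otx1*, *Sp8*, *Lhx5* and *Sox1*. They were taken by name as a family of regulators, and all 8 were found among the 27998 genes counted in both libraries. Single cells came from the ocular area of mouse embryos of the C57BL/6J strain at 26 somites (E9.25), and each genotype gave 1 library made from both optic areas of 1 embryo, freed by trypsin. The WT group was wild type and the KO group was *Mab21l1*-null, and neither carried any other allele or treatment that the labels name. The 10x Chromium system tags the 3′ end of each captured transcript with a cell barcode and a unique molecular identifier (UMI), so a UMI count is a count of captured transcripts. Since each genotype is 1 embryo, differences between the libraries are given as values with counting intervals and were not tested.

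The forebrain and the eye grow from the same anterior neural plate, and the transcription factors that act there first divide it into telencephalon, diencephalon, optic stalk, retina and pigment epithelium. *Fezf2* (a zinc finger repressor), *Nr2e1* (the orphan nuclear receptor TLX), *Dmrta2* (a DM-domain factor), *Emx2* and *Otx1* (homeodomain factors), *Lhx5* (a LIM-homeodomain factor), *Sp8* (a zinc finger factor) and *Sox1* (an SRY-related factor of neural progenitors) are all known from the patterning or growth of the rostral brain. *Otx1* also acts with *Otx2* in the optic vesicle, and *Emx2* has long-known roles outside the brain, among them in the urogenital tract and the shoulder girdle.

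Levels are UMIs per 1000000 UMIs of the cells concerned (CPM), and are compared between cell classes or libraries for the same gene, not between genes. Square brackets hold an exact 95% interval, which is a Poisson interval for a level, a conditional interval for the log2 ratio of 2 levels and a binomial (Clopper-Pearson) interval for a share of cells. All of them cover counting error only. Where a pair of values is given without a library, the first is from the library labelled WT. The library labelled WT held 43636657 UMIs over 1745 barcodes and the library labelled KO 53148253 UMIs over 2458 barcodes, of which 1680 and 2404 cells were kept. Medians of kept cells were 21037 and 18135 UMIs. *Mab21l1*, the disrupted gene, reached 20.3 CPM in the library labelled WT and 32.3 CPM in the library labelled KO. It was lower in the library labelled KO in ectoderm-like cells (86.8 and 37.8 CPM) and higher there in retina-like cells (43.6 and 78.7 CPM), so each direction below rests on the labels. Which part of *Mab21l1* the allele removes is not given in the sources used here. The libraries share 15 barcode sequences, and Scrublet called 9 and 7 doublets, which were kept.

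Cells were clustered without the 8 genes, and clusters were named from marker lists. The class called forebrain-like here numbered 221 and 399 cells. It passed 5 of its 8 markers at 2-fold over all other cells (among them *Wnt8b*, *Wnt7b* and *Neurog2*), while *Barhl2* had 0 UMIs and *Irx3* and *Hesx1* were lower than in all other cells. It also held *Pax2* at 132 CPM and *Six6* at 277 CPM, genes of the optic stalk and optic vesicle, and it passed 3 of 5 markers of the ventral optic vesicle and stalk. Retina-like cells numbered 228 and 475, and pigment epithelium-like cells 223 and 266, with 5 of 7 and 7 of 7 markers. Other named classes were mesenchyme-like (496 and 771 cells), ectoderm-like (58 and 48), endothelium-like (66 and 102), erythrocyte-like (38 and 52) and neural crest-like (30 and 32). Erythrocyte-like cells, which should lack all 8 genes, show the background: their levels ran from 0 to 3.65 CPM at medians of 34642.5 and 33621.5 UMIs per cell.

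The windows before the RefSeq starts of *Fezf2*, *Nr2e1* and *Dmrta2* are shown because the forebrain-like pattern and the pairs of genes described below turn on these 3. The *Fezf2* gene (ENSMUSG00000021743) lies on chr14:12342094-12348189 on the minus strand, *Nr2e1* (ENSMUSG00000019803) on chr10:42561963-42583632 on the minus strand, and *Dmrta2* (ENSMUSG00000047143) on chr4:109978053-109983687 on the plus strand, all in GRCm38. Each window is the longest run outside exons of protein-coding genes within 250 bases before the RefSeq start, read 5′ to 3′ on the gene's strand from the RefSeq table of GRCm38.p6. The *Fezf2* window is chr14:12345960-12346115, the *Nr2e1* window chr10:42583633-42583821 and the *Dmrta2* window chr4:109977775-109978024. Capitals mark matches, on either strand, to the homeodomain core TAATTA, the Otx-type motif TAATCC, the Sox-type motif ACAAAG, the GC box GGGCGG, the TATA box TATAAA or the CCAAT box CCAAT, the last of which was added after the sequences were read.
Fezf2: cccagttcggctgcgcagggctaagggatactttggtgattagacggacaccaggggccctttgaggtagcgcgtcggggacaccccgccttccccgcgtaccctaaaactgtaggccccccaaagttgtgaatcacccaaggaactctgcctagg
Nr2e1: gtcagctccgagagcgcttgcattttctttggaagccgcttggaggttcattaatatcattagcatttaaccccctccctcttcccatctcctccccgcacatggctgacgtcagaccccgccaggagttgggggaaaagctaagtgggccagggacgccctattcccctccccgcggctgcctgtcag
Dmrta2: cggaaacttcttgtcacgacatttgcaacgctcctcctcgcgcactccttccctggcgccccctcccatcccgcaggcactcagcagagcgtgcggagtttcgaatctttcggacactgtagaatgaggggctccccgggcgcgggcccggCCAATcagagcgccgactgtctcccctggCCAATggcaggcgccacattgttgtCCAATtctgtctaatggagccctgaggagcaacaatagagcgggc
The *Dmrta2* window held 3 matches to CCAAT, which 33.8% of all 32851 windows of that length hold at least once. The other 5 motifs were found in none of the 3 windows, and CCAAT was found in neither the *Fezf2* nor the *Nr2e1* window (20.9% and 27.8% of all windows of those lengths). For GGGCGG the shares of all windows were 17.5%, 25.4% and 32.7% at the lengths of *Fezf2*, *Nr2e1* and *Dmrta2*. All 3 windows are rich in G and C (60.3%, 58.2% and 61.6%). The *Dmrta2* window overlaps an exon of *Dmrta2os* on the other strand, and the *Nr2e1* window lies between *Nr2e1* and *Ostm1*. The *Fezf2* window lies inside the GENCODE span of the gene, which reaches further 5′ through another transcript than the RefSeq start. The table matched 6 of the 8 genes.

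The 8 genes did not share 1 pattern. *Fezf2*, *Nr2e1*, *Sox1* and *Lhx5* were highest in forebrain-like cells in both libraries, and *Dmrta2* was high in forebrain-like and ectoderm-like cells. *Otx1* was highest in pigment epithelium-like cells, *Emx2* lay mostly in mesenchyme-like cells, and *Sp8* was close to undetected. For each gene except *Sp8* the class with the highest level was the same in both libraries, as the plot of levels by class shows.

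**Figure D1:**
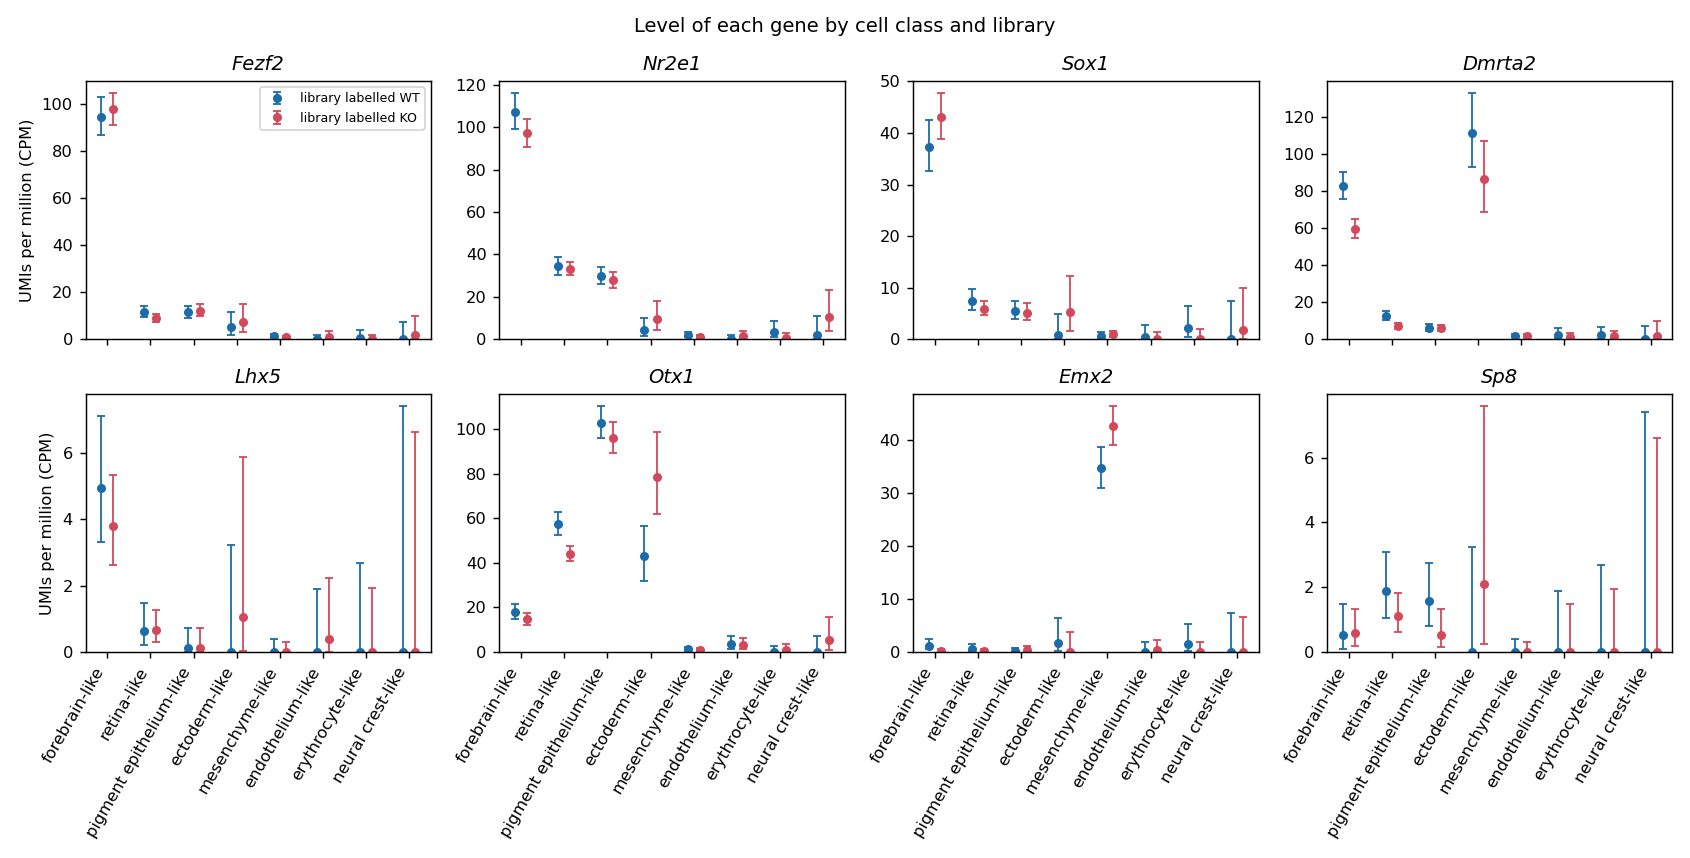
Level of each gene in CPM (vertical axis, linear, from 0, with its own scale in each panel) in the 8 named cell classes (horizontal axis) for the WT-labelled library (blue) and the KO-labelled library (red). Points are sums over the cells of a class and bars are exact 95% Poisson intervals. *Fezf2* stands at 94.6 and 97.7 CPM in forebrain-like cells and at 12.2 CPM or less in the other named classes, while *Emx2* stands at 34.7 and 42.7 CPM in mesenchyme-like cells and at 1.75 CPM or less in the others.

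*Fezf2* was the clearest mark of the forebrain-like class. In the WT-labelled library its level was 94.6 CPM [86.9, 103] there (555 UMIs), 11.6 CPM in retina-like and 11.4 CPM in pigment epithelium-like cells. In the KO-labelled library the same values were 97.7 CPM [91.2, 104], 8.93 CPM and 12.2 CPM. Forebrain-like cells thus exceeded retina-like cells by 3.02 [2.70, 3.35] and 3.45 [3.18, 3.74] on the log2 scale. The retina-like and pigment epithelium-like levels did not separate beyond counting error in the WT-labelled library (log2 ratio 0.03 [-0.41, 0.47]) and did in the KO-labelled library (-0.45 [-0.85, -0.05]). In all other named classes *Fezf2* stayed at 7.35 CPM or less. Few retina-like cells carried it. The 23 of 228 and 48 of 475 retina-like cells with most *Fezf2* UMIs held 79.6% and 86.0% of them, beside 36.0% and 41.7% in the 23 of 221 and 40 of 399 such forebrain-like cells. The size of the step between these classes depends on where their edges are drawn. At a resolution of 1.2 *Fezf2* held 126 and 178 CPM in forebrain-like and 5.06 and 3.78 CPM in retina-like cells.

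*Nr2e1*, which keeps neural progenitors dividing in the brain and retina, was spread more widely. Forebrain-like cells held 107 CPM [99.0, 116] in the WT-labelled library and 97.0 CPM [90.6, 104] in the KO-labelled library. Retina-like cells held 34.4 and 33.3 CPM, and pigment epithelium-like cells 29.9 and 27.9 CPM. The forebrain-like level exceeded the retina-like level by 1.64 [1.43, 1.85] and 1.54 [1.38, 1.71] on the log2 scale, a smaller step than for *Fezf2*. After each cell was thinned to 10000 UMIs, *Nr2e1* was detected in 56.0% and 54.8% of forebrain-like cells, in 26.7% and 25.7% of retina-like cells and in 21.9% and 22.7% of pigment epithelium-like cells. No erythrocyte-like cell held it at that depth, and without thinning 5.26% and 1.92% of them did.

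*Sox1* followed the pattern of *Fezf2* at lower counts. Its level in forebrain-like cells was 37.3 CPM [32.5, 42.6] in the WT-labelled library (219 UMIs) and 43.1 CPM [38.9, 47.7] in the KO-labelled library (376 UMIs). Retina-like cells held 7.51 and 5.98 CPM and pigment epithelium-like cells 5.51 and 5.15 CPM, and these neighbours did not separate beyond counting error (log2 ratios 0.45 [-0.15, 1.05] and 0.22 [-0.35, 0.80]). *Sox1* has a single exon on chr8:12395295-12400126, and *Sox1ot* runs through the same stretch on the same strand without sharing an exon.

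*Lhx5*, a gene of the caudal forebrain and its Cajal-Retzius neurons, was scarce. It had 29 UMIs (4.94 CPM [3.31, 7.10]) and 33 UMIs (3.78 CPM [2.60, 5.31]) in forebrain-like cells, and 5 and 9 UMIs in retina-like cells. Of all *Lhx5* UMIs in kept cells, 64.4% and 63.5% lay in the forebrain-like class. An exon of *Gm27199* overlaps it on the other strand, and had 1 UMI in the forebrain-like cells of both libraries together.

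*Dmrta2* was highest outside the neural classes. In ectoderm-like cells, named from epithelial keratins and *Cdh1*, it reached 111 CPM [92.8, 133] in the WT-labelled library (127 UMIs) and 86.1 CPM [68.5, 107] in the KO-labelled library (82 UMIs). Forebrain-like cells held 82.6 CPM [75.5, 90.3] and 59.6 CPM [54.6, 65.0]. The ectoderm-like level exceeded the forebrain-like one 1.35-fold [1.10, 1.64] and 1.45-fold [1.13, 1.83]. Retina-like cells held 12.6 and 7.16 CPM and pigment epithelium-like cells 6.04 and 5.92 CPM, and in the remaining named classes *Dmrta2* was at 2.55 CPM or less, close to the 2.19 and 1.58 CPM of erythrocyte-like cells.

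Most ectoderm-like cells contributed to the *Dmrta2* level. UMIs of it were found in 37 of 58 and 29 of 48 cells, and the 6 and 5 cells with most held 40.2% and 37.8% of the UMIs. At 10000 UMIs per cell, *Pax6*, which the lens-forming ectoderm expresses, was detected in 96.2% [80.4, 99.9] of the *Dmrta2*-positive and in 60.7% [40.6, 78.5] of the *Dmrta2*-negative ectoderm-like cells of the WT-labelled library. The intervals did not touch there, but in the KO-labelled library the shares were 78.9% [54.4, 93.9] and 69.2% [48.2, 85.7]. For *Six3*, another gene of the anterior neural plate and lens ectoderm, the shares were 88.5% and 50% in the WT-labelled library and 78.9% and 50% in the KO-labelled library. *Krt8*, an epithelial keratin, was detected in most cells with or without *Dmrta2* (92.3% and 92.9%, then 78.9% and 88.5%).

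*Otx1* had its highest level in pigment epithelium-like cells. Its level there was 103 CPM [95.9, 110] in the WT-labelled library and 96.1 CPM [89.3, 103] in the KO-labelled library. Retina-like cells held 57.6 CPM [52.5, 63.1] and 44.1 CPM [40.7, 47.8], and forebrain-like cells 17.9 CPM [14.6, 21.7] and 14.7 CPM [12.2, 17.4]. The steps between these classes were larger than counting error in both libraries, at -1.69 [-2.01, -1.38] and -1.59 [-1.88, -1.31] log2 for forebrain-like over retina-like cells and -0.84 [-1.01, -0.67] and -1.12 [-1.28, -0.97] for retina-like over pigment epithelium-like cells. Ectoderm-like cells held 43.0 CPM [31.8, 56.8] and 78.8 CPM [62.0, 98.8], so they did not separate from retina-like cells in the WT-labelled library (retina-like over ectoderm-like, log2 0.42 [-0.00, 0.88]) and ranked above them in the KO-labelled one (-0.84 [-1.18, -0.47]). *Otx1* (ENSMUSG00000005917, chr11:21994764-22002897, minus strand) was at 5.38 CPM or less in the other named classes.

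*Emx2*, known from the cerebral cortex, had nearly no UMIs in the neural classes. Forebrain-like cells held 7 UMIs in the WT-labelled library (1.19 CPM) and 1 in the KO-labelled library (0.115 CPM), retina-like cells 5 and 3, and pigment epithelium-like cells 1 and 3. Mesenchyme-like cells held 329 UMIs (34.7 CPM [31.0, 38.6]) and 531 UMIs (42.7 CPM [39.1, 46.5]), which were 89.6% and 91.9% of all *Emx2* UMIs in kept cells. Among unnamed clusters, cluster 14 (19 and 39 cells) held 10 and 13 *Emx2* UMIs (53.7 and 36.8 CPM). Cluster 12 (33 and 46 cells) held 5 and 24 (4.14 and 15.8 CPM, log2 ratio 1.93 [0.51, 3.68]), and Scrublet called 9 of its cells doublets.

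Within the mesenchyme-like class *Emx2* was uneven. Cluster 4, with *Ret* among its 5 leading genes, held 83.2 CPM [70.2, 98.0] and 73.9 CPM [66.2, 82.3]. Cluster 1, led by *Tbx15*, *Lum* and *Tbx18*, held 24.6 CPM (161 UMIs) and 32.5 CPM [28.1, 37.4]. Cluster 8, led by *Cga*, *Alcam* and *Ebf2*, held 0 UMIs and 1 UMI, and for the former 3 UMIs would be 6.91 CPM and the exact interval ends at 8.50 CPM. The libraries filled the clusters differently, with 93 and 290 cells in cluster 4, 305 and 350 in cluster 1, 27 and 118 in cluster 8 and 71 and 13 in the shallow cluster 11. *Emx2* was used in none of this clustering, though it was itself among the 5 leading genes of cluster 4.

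The antisense gene *Emx2os* overlaps the start of *Emx2* (ENSMUSG00000043969, chr19:59458372-59465357, plus strand) on the other strand. The overlap, chr19:59458372-59458635, lies at the 5′ ends of both genes, while the method tags the 3′ ends of transcripts. Whether the counting used strand is not given in the sources used here, so whether reads in that overlap were told apart is not known. *Emx2os* had 8.71 and 7.50 CPM in cluster 1 and 19.1 and 13.6 CPM in cluster 4, so it was also higher in cluster 4 than in cluster 1.

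**Figure D2:**
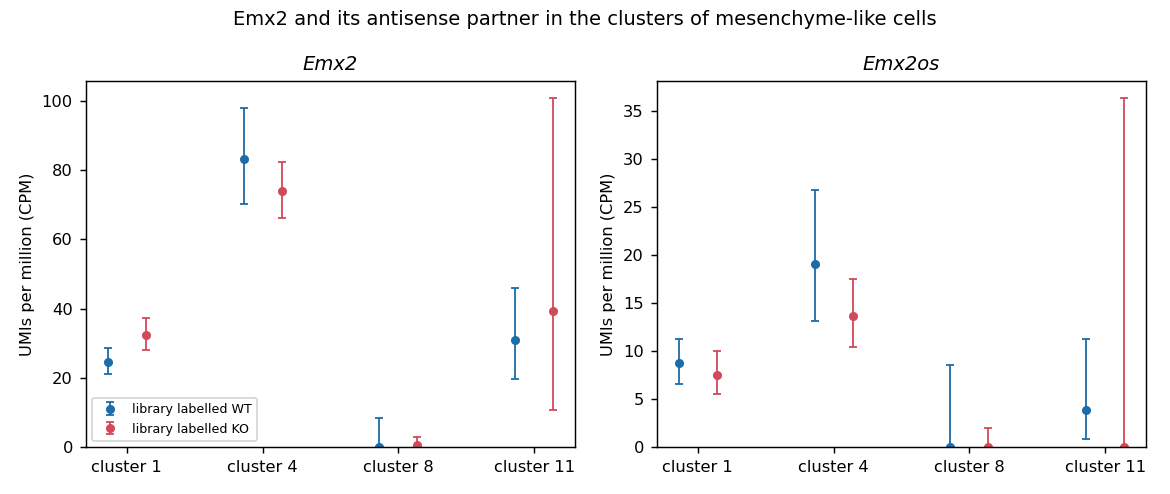
Levels of *Emx2* (left) and *Emx2os* (right) in CPM (vertical axes, linear, from 0) in clusters 1, 4, 8 and 11 of the mesenchyme-like cells, for the WT-labelled library (blue) and KO (red), with exact 95% Poisson intervals. *Emx2* is highest in cluster 4 (83.2 and 73.9 CPM), and the wide bars of cluster 11 in the KO-labelled library rest on 13 cells.

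*Sp8*, a gene of the anterior neural ridge and later of the olfactory bulb, gave 31 UMIs in kept cells of the WT-labelled library and 27 in the KO-labelled library. Of these, 15 and 15 lay in retina-like cells (1.88 and 1.11 CPM), 12 and 4 in pigment epithelium-like cells and 3 and 5 in forebrain-like cells. No UMI of *Sp8* fell in the 496 and 771 mesenchyme-like cells, where 3 UMIs, taken as the limit that a count of 0 allows, would be 0.316 and 0.241 CPM and the exact intervals end at 0.389 and 0.296 CPM. The levels in the neural classes were above 0 but too low for a difference between the libraries to be detectable at this depth.

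The comparison of the KO-labelled library with the WT-labelled library asks whether these genes differ where *Mab21l1* is disrupted. In forebrain-like cells none of the 6 members with at least 50 UMIs was past 1.5-fold in either direction. Of all 9899 genes with that many UMIs in the class, 2.16% were at least 1.5-fold higher and 1.91% at least 1.5-fold lower. *Fezf2* had a log2 ratio of 0.05 [-0.11, 0.20], *Nr2e1* of -0.14 [-0.29, 0.01] and *Sox1* of 0.21 [-0.04, 0.45], each with an interval that reached 0. For *Fezf2* this depends on the edge of the class. Its levels were 126 and 178 CPM at a resolution of 1.2 and 119 and 149 CPM with 20 principal components. *Lhx5* (-0.39 [-1.15, 0.39]) and *Otx1* (-0.29 [-0.67, 0.10]) rested on fewer UMIs. *Otx1* was past 1.5-fold lower when the class was drawn more narrowly, at 20.7 and 12.2 CPM with a resolution of 1.2 and 21.5 and 11.7 CPM with 20 principal components, and also with cluster 6 added. The median over the 6 members was -0.22, beside 0.02 over all 9899 genes.

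Among these 6, *Dmrta2* alone had an interval that left 0 in forebrain-like cells, at a log2 ratio of -0.47 [-0.65, -0.29] from 485 and 520 UMIs. Unthinned, 58.4% and 46.1% of the cells held it, and at 10000 UMIs per cell 39.4% and 32.2%. The value depends on where the edge of the class is drawn: it was -0.18 at a clustering resolution of 1.2, -0.23 with 20 principal components and -0.24 with the unnamed cluster 6 added, a setting chosen after seeing the data. At the resolution of 1.2 the class held 122 and 180 cells, and *Fezf2* stood at 126 and 178 CPM in them.

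In retina-like cells 1 of the 5 members with at least 50 UMIs was past 1.5-fold, *Dmrta2*, which was lower in the KO-labelled library. Of 10524 genes in the class, 1.46% were at least 1.5-fold lower and 1.52% at least 1.5-fold higher. The *Dmrta2* counts were 101 and 97 UMIs (12.6 and 7.16 CPM), a log2 ratio of -0.82 [-1.24, -0.40]. These UMIs sat in few cells, with 86.1% and 94.8% of them in the 23 of 228 and 48 of 475 cells that held most. At a resolution of 1.2 the retina-like class shrank to 185 and 374 cells, *Dmrta2* stood at 2.89 and 3.88 CPM, and the log2 ratio was 0.43. *Otx1* was lower at -0.38 [-0.56, -0.21] in retina-like cells, and it lay between -0.34 and -0.56 under each alternative tried. *Fezf2* (-0.38 [-0.78, 0.02]), *Sox1* (-0.33 [-0.83, 0.18]) and *Nr2e1* (-0.05 [-0.27, 0.17]) had intervals that reached 0, and the median over the 5 was -0.38, beside -0.01 over all genes.

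In pigment epithelium-like cells none of 5 members was past 1.5-fold, where 2.59% of 10025 genes were higher and 1.85% lower by that much. *Otx1*, the most counted member there with 785 and 747 UMIs, had a log2 ratio of -0.10 [-0.25, 0.05]. The other 4 lay between -0.10 and 0.10.

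In ectoderm-like cells 1 of 2 members was past 1.5-fold, *Otx1*, which was higher in the KO-labelled library. There 3.15% of 5113 genes were at least 1.5-fold higher and 6.00% at least 1.5-fold lower. *Otx1* had 49 UMIs in 27 of 58 cells of the WT-labelled library and 75 UMIs in 32 of 48 cells of the KO-labelled library, a log2 ratio of 0.87 [0.34, 1.42]. The share of cells with *Otx1* at 10000 UMIs per cell was 33.3% and 55.6%. The log2 ratio of *Dmrta2* was -0.37 [-0.79, 0.04]. The optic vesicle genes *Otx2* (15.8 and 36.8 CPM) and *Lhx2* (17.5 and 44.1 CPM) were also higher in ectoderm-like cells of the KO-labelled library. *Six3* (209.6 and 159.7 CPM) and *Pax6* (265.7 and 203.8 CPM), which the lens ectoderm itself expresses, were lower. The intervals of *Rax* and *Sox2* reached 0. Of the members highest in forebrain-like cells, *Fezf2* had 6 and 7 UMIs in ectoderm-like cells, *Nr2e1* 5 and 9, *Sox1* 1 and 5 and *Lhx5* 0 and 1. The intervals of *Fezf2*, *Nr2e1* and *Sox1* reached 0. The higher *Otx2* and *Lhx2* values rest on 18 and 35 UMIs of *Otx2* and 20 and 42 of *Lhx2*. The part of neural cells or free RNA in the *Otx1* value was not tested.

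In mesenchyme-like cells *Emx2*, the single member with at least 50 UMIs, was not past 1.5-fold, where 1.67% of 10466 genes were higher and 2.19% lower. Its log2 ratio was 0.30 [0.10, 0.50] over the class, 0.40 [0.09, 0.71] in cluster 1 and -0.17 [-0.46, 0.12] in cluster 4. Cluster 4, where *Emx2* was highest, made up a larger part of the class in the KO-labelled library (93 of 496 and 290 of 771 cells). The sum over the class mixes the levels within its clusters with the numbers of cells in them. The part of each in the ratio of 0.30 was not tested.

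**Figure D3:**
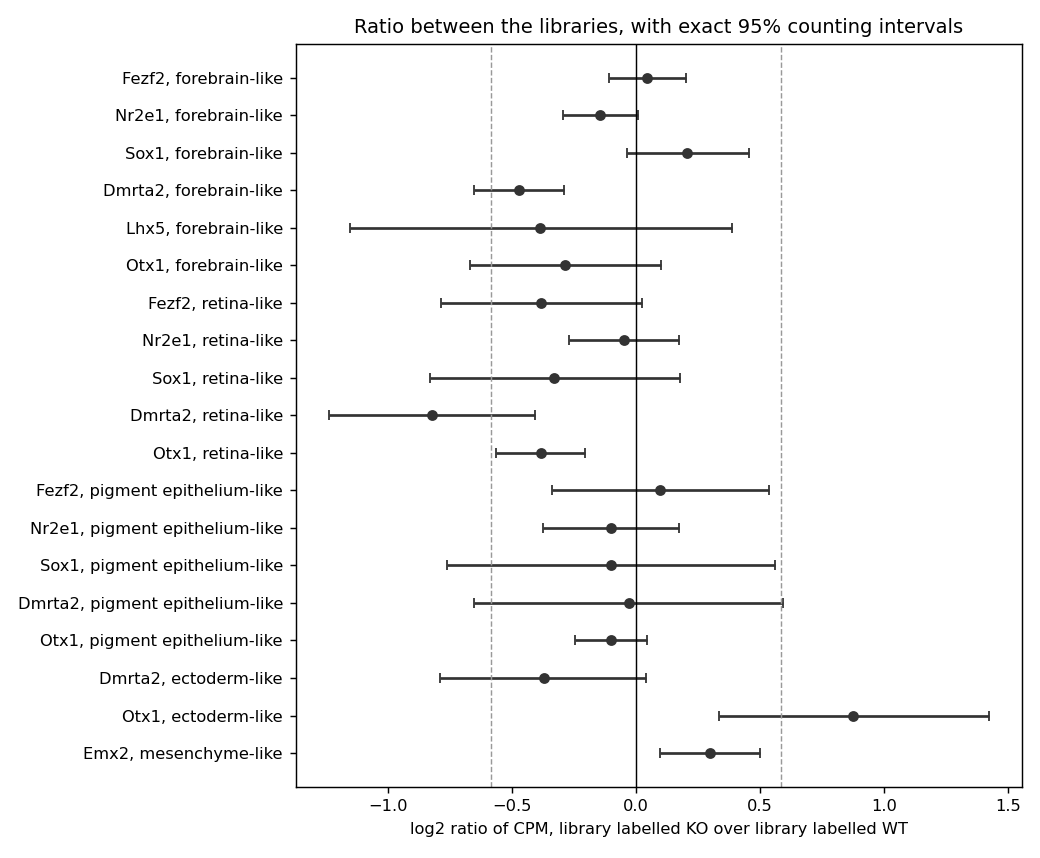
Log2 ratio of CPM of the KO-labelled library over the WT-labelled library (horizontal axis) for each gene with at least 50 UMIs in a class (vertical axis), with exact 95% counting intervals. The solid line is 0 and the dashed lines mark 1.5-fold, which *Dmrta2* in retina-like cells (-0.82) and *Otx1* in ectoderm-like cells (0.87) passed.

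Co-detection was read at 10000 UMIs per cell. Cells shallower than this were not used, namely 5 and 5 shallower forebrain-like cells, 11 and 8 retina-like cells and 4 and 10 pigment epithelium-like cells. In forebrain-like cells 141 of 216 cells (65.3% [58.5, 71.6]) of the WT-labelled library and 220 of 394 cells (55.8% [50.8, 60.8]) of the KO-labelled library held UMIs of at least 2 of the 8 genes. Without thinning the shares were 85.5% and 77.7%. In retina-like cells the thinned shares were 19.8% and 13.5%, and in pigment epithelium-like cells 46 of 219 and 45 of 256 cells (17.6% in the latter). Cells with UMIs of 3 or more members were common in the forebrain-like class (63, 20 and 1 cells with 3, 4 and 5 in the WT-labelled library, and 68, 29 and 4 in the KO-labelled library), while the most in a retina-like or pigment epithelium-like cell was 4. Such numbers rise with the level of each gene alone, and the shares expected from the single genes are not given here.

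**Figure D4:**
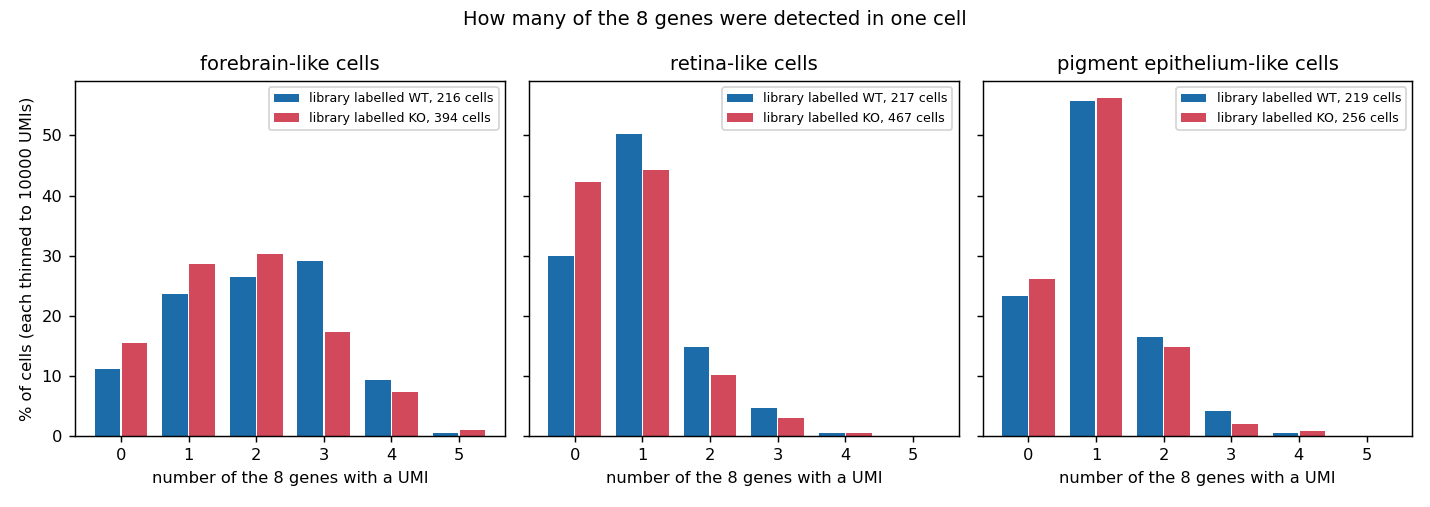
Share of cells (vertical axis, percent, from 0) by the number of the 8 genes detected in the cell (horizontal axis) in forebrain-like, retina-like and pigment epithelium-like cells of the WT-labelled library (blue) and KO (red), each cell thinned to 10000 UMIs. Forebrain-like cells spread over 0 to 5 genes, with 65.3% and 55.8% at 2 or more, while retina-like and pigment epithelium-like cells mostly held 0 or 1.

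Among pairs, *Fezf2* and *Dmrta2* went together most clearly. *Dmrta2* was detected in 50.4% (57 of 113 cells) of the *Fezf2*-positive and in 27.2% [18.9, 36.8] of the *Fezf2*-negative forebrain-like cells of the WT-labelled library. The shares in the KO-labelled library were 50.6% [42.8, 58.4] and 18.6% [13.7, 24.3]. In both libraries the exact intervals of the positive and negative shares did not overlap. *Nr2e1* was detected in 61.9% and 64.9% of *Fezf2*-positive and in 49.5% and 47.3% of *Fezf2*-negative cells, with intervals that overlapped in the WT-labelled library ([52.3, 70.9] and [39.5, 59.5]) and lay apart in the KO-labelled library ([57.2, 72.1] and [40.7, 54.1]).

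*Sox1* and *Otx1* showed no separation by *Fezf2*. *Sox1* was found in 38.1% [29.1, 47.7] and 29.2% of *Fezf2*-positive and 26.2% [18.0, 35.8] and 28.3% of *Fezf2*-negative cells, and shared 19.9% and 12.4% of cells with it beside products of 17.0% and 12.2%. *Otx1* was found in 13.3% and 9.52% of *Fezf2*-positive and 17.5% and 13.7% of *Fezf2*-negative cells, with overlapping intervals throughout. *Lhx5* was found with *Fezf2* in 5 of its 11 cells in the WT-labelled library and in 14 of 17 in the KO-labelled library. *Dmrta2* and *Sox1* were found together in 28 of 216 and 33 of 394 cells, where the products of their shares would give 12.8% and 9.24% and the cells found together made up 12.96% and 8.38%.

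In retina-like cells the pair of *Fezf2* and *Dmrta2* stood out too, on small counts. *Dmrta2* was detected in 5 of 17 *Fezf2*-positive cells (29.4% [10.3, 56.0]) and in 5% of the others in the WT-labelled library, and in 7 of 27 (25.9% [11.1, 46.3]) and 4.77% [2.98, 7.20] in the KO-labelled library. Both genes were lower in the narrower retina-like class at a resolution of 1.2. *Fezf2* held 5.06 and 3.78 CPM there, beside 11.6 and 8.93 CPM as reported. *Dmrta2* held 2.89 and 3.88 CPM, beside 12.6 and 7.16 CPM. Whether the pair goes together in that class was not tested.

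In retina-like and pigment epithelium-like cells the pair of *Nr2e1* and *Otx1* ran below the product of the shares. In the former they were found together in 8.76% and 6.64% of cells, beside products of 12.6% and 8.20%. In pigment epithelium-like cells the values were 13.2% and 8.98% beside 14.1% and 12.7%. *Otx1* was detected in 19 of 58 *Nr2e1*-positive (32.8%) and 52.2% [44.1, 60.2] of *Nr2e1*-negative retina-like cells of the WT-labelled library, and in 25.8% and 34.0% in the KO-labelled library. In pigment epithelium-like cells of the KO-labelled library the shares were 39.7% [27.0, 53.4] and 61.1% [53.9, 67.9], and in the WT-labelled library 60.4% and 65.5%. The exact intervals lay apart only in that KO-labelled pigment epithelium-like case and overlapped in the other 3.

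The forebrain-like class held 2 subclusters when re-clustered without the members. The larger, of 153 and 249 cells, was led by *Filip1*, *Wls*, *Neurog2*, *Neurod1* and *Pou3f2*, of which *Neurog2* and *Neurod1* are proneural factors. The smaller, of 68 and 150 cells, was led by *Grem1*, *Fgf9*, *Cyp1b1*, *Hmx1* and *Nkx6-2*, of which *Hmx1* is on the retina marker list. The forebrain marker *Neurog2* had 2 UMIs and 1 UMI there. Another, *Wnt8b*, held 11.8 and 9.03 CPM beside 13.4 and 13.8 CPM in the larger. *Six3* held 276 and 308 CPM beside 121 and 125 CPM. Whether the smaller subcluster is forebrain or optic vesicle was not tested, and values over the class mix both subclusters. Median depths were 21174.5 UMIs per cell in the larger and 17882.5 in the smaller subcluster.

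Of the *Dmrta2* UMIs in the class, 462 of 485 and 509 of 520 lay in the larger subcluster, and of the *Fezf2* UMIs 511 of 555 and 789 of 852. *Dmrta2* held 109 and 88.8 CPM there and 14.2 and 3.68 CPM in the smaller one, a log2 ratio of 2.93 [2.33, 3.61] in the WT-labelled library and 4.59 [3.74, 5.60] in the KO-labelled library. *Fezf2* held 120 and 138 CPM against 27.2 and 21.1 CPM (2.14 [1.70, 2.62] and 2.71 [2.34, 3.10]). *Nr2e1* differed less, at 123 and 121 CPM against 66.2 and 50.2 CPM.

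*Sox1* was even across the subclusters, with 37.6 and 40.1 CPM in the larger and 36.5 and 48.8 CPM in the smaller (log2 ratios 0.04 [-0.40, 0.50] and -0.28 [-0.59, 0.03]). *Otx1* held 20.9 and 15.7 CPM against 9.90 and 12.7 CPM, and *Lhx5* 28 and 28 UMIs against 1 and 5.

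Between the libraries, *Fezf2* in the larger subcluster was at 0.20 [0.03, 0.36] and *Dmrta2* at -0.29 [-0.48, -0.11], so they lay on opposite sides of 0 there. In the smaller subcluster *Dmrta2* had 23 and 11 UMIs (-1.95 [-3.14, -0.86]) and *Nr2e1* 107 and 150 (-0.40 [-0.77, -0.03]). Within the larger subcluster *Dmrta2* was detected in 57.7% and 56.3% of *Fezf2*-positive and in 40% and 40.6% of *Fezf2*-negative cells, a smaller gap than over the class, with overlapping intervals in the WT-labelled library ([47.3, 67.7] and [27.0, 54.1]) and the KO-labelled library ([48.0, 64.3] and [30.7, 51.1]).

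**Figure D5:**
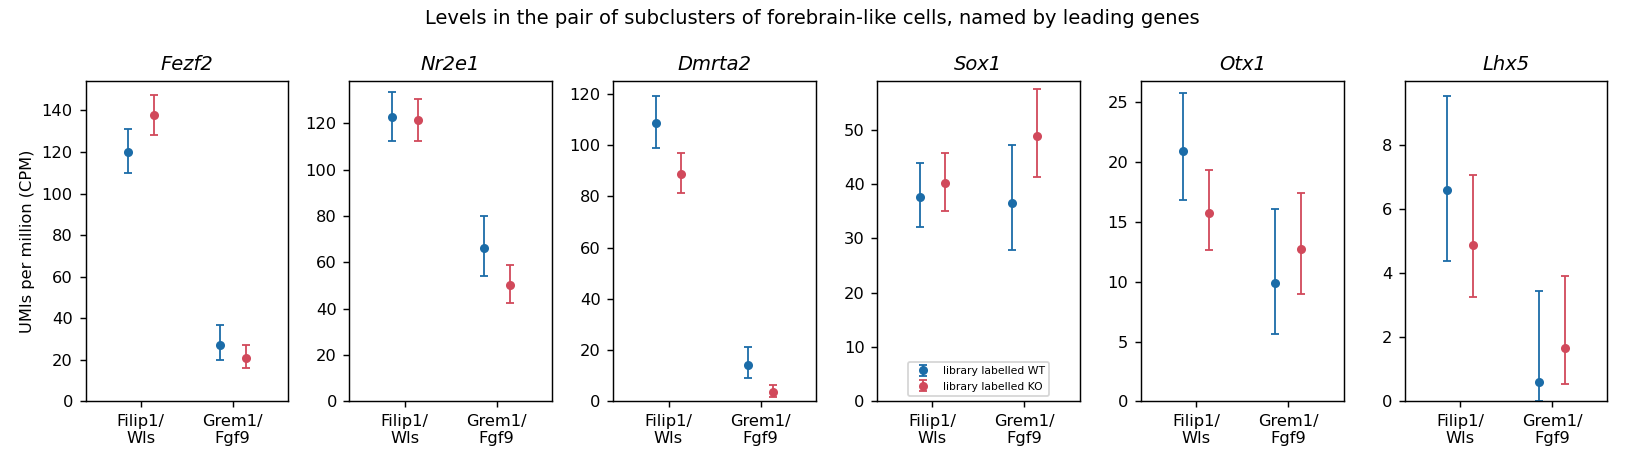
Levels of 6 members in CPM (vertical axes, linear, from 0) in the subcluster led by *Filip1* and *Wls* and the subcluster led by *Grem1* and *Fgf9*, for the WT-labelled library (blue) and KO (red), with exact 95% Poisson intervals. *Fezf2* and *Dmrta2* are lower in the latter in both libraries, and *Sox1* is at 36.5 to 48.8 CPM throughout.

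The unnamed cluster 6, of 151 and 53 cells, led by *Fn3krp*, *Slc2a12* and *Amt*, tied between forebrain and optic stalk markers and carried the forebrain-high members too. *Fezf2* held 49.9 and 79.6 CPM there, *Nr2e1* 80.8 and 102 CPM, *Dmrta2* 49.2 and 78.4 CPM and *Sox1* 33.9 and 46.5 CPM. *Dmrta2* and *Fezf2* were thus both higher in the KO-labelled library in this cluster (log2 ratio 0.67 [0.22, 1.11] for each). *Nr2e1* (0.33 [-0.05, 0.70]) and *Sox1* (0.46 [-0.13, 1.02]) had intervals that reached 0. In the forebrain-like class *Dmrta2* was lower and the interval of *Fezf2* reached 0. *Otx1* held 40.6 and 18.4 CPM in cluster 6 (-1.14 [-2.03, -0.36]). The cluster was shallower, with medians of 14801 and 12988 UMIs beside 22953 and 18787 in forebrain-like cells.

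Nearest relatives of the members were read from a list of 10 paralogs. Unlike the members, the paralogs and the other patterning genes were not taken out of the clustering that drew the classes. *Fezf1* sat in the forebrain-like class like *Fezf2* (36.3 and 29.8 CPM, and 3.02 CPM or less in retina-like and pigment epithelium-like cells). It was among the 5 leading genes of that class. *Sox3* followed *Nr2e1*, at 77.9 and 68.8 CPM in forebrain-like, 21.5 and 19.0 CPM in retina-like and 22.7 and 16.6 CPM in pigment epithelium-like cells, whereas *Sox2* was as high in retina-like cells (90.5 and 102 CPM) as in forebrain-like cells (92.0 and 85.9 CPM). Among the neural classes *Otx2* shared the order of *Otx1*. It held 206 and 232 CPM in pigment epithelium-like, 93.8 and 113 CPM in retina-like and 35.1 and 32.6 CPM in forebrain-like cells. In ectoderm-like cells *Otx2* held 15.8 and 36.8 CPM, below its retina-like level, whereas *Otx1* ranked above its own in the KO-labelled library. Between the libraries the pair went opposite ways in retina-like cells (log2 ratios 0.27 [0.15, 0.40] for *Otx2* and -0.38 [-0.56, -0.21] for *Otx1*). *Emx1*, *Nr2e3*, *Dmrta1*, *Dmrt3* and *Sp9* did not exceed 3.15 CPM in forebrain-like, retina-like, pigment epithelium-like, ectoderm-like or mesenchyme-like cells. None of the paralogs with at least 50 UMIs was past 1.5-fold in forebrain-like cells (4 genes), retina-like cells (4) or pigment epithelium-like cells (3), and *Otx2* was the 1 of 2 past it in ectoderm-like cells. *Lhx1* was found in mesenchyme-like cells (4.32 and 5.62 CPM), not past 1.5-fold.

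A list of 21 other forebrain patterning genes gives the setting. In forebrain-like cells 13 had at least 50 UMIs, and 1 of them, *Fgf8*, the signal of the anterior neural ridge, was past 1.5-fold, at 10.9 and 21.3 CPM. The rise lay in the smaller subcluster, with 20.4 and 46.2 CPM (log2 ratio 1.18 [0.62, 1.77]). In the larger subcluster *Fgf8* held 7.29 and 8.37 CPM (0.20 [-0.48, 0.90]), an interval that reached 0. *Pax6* (187 and 133 CPM) and *Tcf7l2* (112 and 87.6 CPM) were lower by less than that. In retina-like cells 12 had enough UMIs, *Fgf8* was higher (8.76 and 13.6 CPM) and *Foxd1*, a gene of the temporal retina, lower (29.2 and 17.6 CPM). In ectoderm-like cells *Lhx2* was the 1 of 8 past the fold, and in mesenchyme-like cells *Foxd1* (54.1 and 34.1 CPM) and *Zic1* (15.0 and 6.91 CPM) were 2 of 10, both lower. *Barhl2*, *Gsx2*, *Hesx1*, *Shh*, *Nkx2-1* and *Wnt3a* were at 1.53 CPM or less in forebrain-like cells of both libraries, as *Emx2* and *Sp8* were.

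The genes with the most similar levels were ranked by Pearson correlation of log2(CPM + 10) over 16 points, the 8 named classes in both libraries, among 7161 genes that reached 20 CPM in some class of each library. These points share libraries and depth, and the values are a description. *Fezf2* was most like *Sox1* (0.99), *Vwc2* (0.98) and *Shtn1* (0.97), and *Sox1* most like *Vwc2* (0.99). *Nr2e1* was most like *Sox3* (0.99), *Irs4* (0.99) and the long noncoding RNA *Rmst* (0.98). *Otx1* was most like *Ehbp1* (0.98), *Map7* (0.96) and *Alpl* (0.96), and *Emx2* most like *Dpep1* (0.99) and *E330013P04Rik* (0.98). *Dmrta2*, split between ectoderm-like and forebrain-like cells, had no match as close, with *Maf* (0.92), *Fzd8* (0.90) and *Zdhhc21* (0.86) nearest. *Lhx5* and *Sp8* did not reach 20 CPM, and *Lhx5* was nearest to *Fezf1* (0.96) and *Sp8* to *Rorb* (0.81).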

How the data were processed

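The deposited files hold whole-number UMI counts per gene and cell, which the authors made with Cell Ranger on mm10 (GRCm38) and joined with its aggr step, which may subsample reads so that depths match. From these counts, cells were kept that had 1500 to 8000 genes and no more than 5% of UMIs from mitochondria (the methods write this limit with a percent sign, read here as a fraction), as were genes in at least 3 cells. Seurat 5.3.0 in R 4.3.3 scaled each cell to 10000 UMIs, regressed out S and G2M scores and clustered on 1549 variable genes without the members, 40 principal components and a resolution of 0.6. Clusters under 30 cells were left out. A cluster took the name of the list with most markers at 2-fold or more, with at least 3, and ties stayed unnamed, a rule set after the data were seen. Forebrain-like cells were re-clustered on 10 components at a resolution of 0.2. Scrublet ran through scanpy 1.11.5 at a rate of 0.05.

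The members and lists were chosen with earlier results of these data known. Named genes are the 8 members, 10 paralogs, 21 patterning genes, the 3 most similar genes per member and leading genes of clusters, to which *Krt8* and antisense genes were added after values were seen. Sums per class gave CPM, with exact 95% intervals. The ratio code was tested on simulated counts. Alternatives changed filters, resolution, components, regression, doublets, scaling, depth, minimum UMIs and fold. Some genes that these rules name are not reported here. Positions come from GENCODE M21. Other code ran in Python 3.11.15 (scipy 1.17.1, numpy 2.4.6, matplotlib 3.10.9, pandas 2.3.3).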

Additional observations from a re-analysis of the deposited data

Results flagged for a closer look

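Among the named classes, 2 members had the library labelled KO above the library labelled WT in one class and below it in another, each with an interval that left 0. *Otx1* had a log2 ratio of 0.87 in ectoderm-like cells and -0.38 in retina-like cells, a difference of 1.26. *Emx2* had 0.30 in mesenchyme-like cells and -3.38 in forebrain-like cells, a difference of 3.68, but the latter rests on 7 UMIs and 1 UMI. In the unnamed cluster 6, *Dmrta2* had 0.67 against -0.47 in forebrain-like cells, *Fezf2* had 0.67 against 0.05, and *Otx1* had -1.14. None of these differences was tested, since each genotype has 1 library.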

How the results depend on the processing

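No paired analysis was possible because each genotype has 1 library, and for the same reason no library could be left out. Members past 1.5-fold numbered 0 in forebrain-like cells as reported and 1 at a resolution of 1.2, with 20 principal components, with cluster 6 added (*Otx1* each time) and with a minimum of 1 UMI in each library (*Emx2*). In retina-like cells the 1 reported became 0 at resolutions of 0.3 and 1.2, with 20 principal components, with the members kept among the variable genes, with the mean over cells, after thinning and at a fold of 2, and became 2 and 3 at minimums of 20 UMIs and 1 UMI. The 1 in ectoderm-like cells became 0 at a fold of 2 and 3 at a minimum of 1 UMI. The 0 became 2 and 3 in mesenchyme-like cells at minimums of 20 UMIs and 1 UMI, and 2 in pigment epithelium-like cells at 1 UMI. Shares of all genes past the fold under these other settings are not given here. The counts under them are therefore no result about the members. The retina-like *Dmrta2* log2 ratio reversed to 0.43 at a resolution of 1.2. The median over members in mesenchyme-like cells went from 0.30 to -0.17 at a minimum of 20 UMIs, and that in forebrain-like cells from -0.22 to 0.09 at a resolution of 1.2. The share of forebrain-like cells with at least 2 members was 80.2% and 82.1% (WT and KO) at a resolution of 1.2, 79.1% and 74.9% with 20 principal components, 85.5% and 77.7% without thinning, and 58.3% in the library labelled WT with cluster 6 added. The cause was not tested. Leaving out cells with a barcode in both libraries and adding cluster 6 were chosen after seeing the data. Of all 200 recomputed ratios between libraries, 185 moved by less than the reported counting interval, 14 by more and 1 reversed. Of the recomputed ratios of forebrain-like over retina-like cells, 79 moved by less than their reported interval and 21 by more. The resolution of 1.2 gave 8 of the latter. At resolution 0.3 pigment epithelium-like and retina-like cells formed 1 class, so no pigment epithelium-like value was obtained. Depth limits *Lhx5* and *Sp8* most.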
